A study of Homo sapiens with 11 samples.

Results

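The genes described are 42 genes of vesicle traffic and secretion in HCT116 cells, a human colorectal carcinoma line: 23 RAB GTPases, 13 SNARE proteins and their regulators, 2 synaptotagmins and 4 exocyst subunits. They were chosen by name, as genes with a known role on the secretory and endosomal routes, and each was read from the brightest probe that carries its symbol. Of the 42 genes, 40 had such a probe among 16505 genes with a symbol, and 31 were bright enough to be tested among 10267 genes tested. STX4 and NSF were not analysed here. RNA was hybridised to Illumina HumanRef-8 beadchips, which carry 1 bead type per probe and are read in 1 colour. Of the arrays, 8 came from HCT116 cells stably transfected with the pIRES2-EGFP plasmid that carries the coding sequence of human cytoplasmic gelsolin (lines C1, C2, C3 and C8), and 3 from HCT116 cells stably transfected with the empty pIRES2-EGFP plasmid (lines V4 and V5). Both groups therefore carry EGFP and went through drug selection, and no untransfected cells were analysed here. The study calls the lines clones, so a line may differ from another for reasons other than gelsolin. Every line had 2 harvests except V5, of which 1 array is analysed, and the first harvests lie on beadchip 1 while the second harvests and V5 lie on beadchip 2. The V5 array is labelled replicate 1 although it lies with the second harvests, and which harvest it holds is not settled by the labels.

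RAB GTPases are molecular switches that sit on a membrane in their GTP-bound form and recruit motors, tethers and other effectors, so that each RAB marks a particular compartment or vesicle. The exocyst is a tethering complex that holds secretory vesicles at the plasma membrane. SNARE proteins on the vesicle and on the target membrane then zip together and drive fusion, with SM proteins such as STXBP2 assisting assembly, and NSF with its adaptor NAPA taking the spent complexes apart. Synaptotagmins are calcium sensors that couple fusion to a calcium signal. Colorectal epithelial cells use these proteins to deliver secreted and surface proteins and to recycle receptors and integrins. The comparison asks whether the transcripts of this machinery differed between cells with raised gelsolin, an actin-severing protein, and cells with the empty plasmid.

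GSN, the gelsolin gene, was read first as a check of the labels. Signals are given after each array was divided by its median and brought to a common median, and a value with ± is the mean and SD over the lines of a group (n = 4 gelsolin lines, n = 2 vector lines). The GSN signal was 226, 197, 209.8 and 265 in lines C1, C2, C3 and C8, against 141 and 140.2 in V4 and V5 (log2 fold change 0.67, standard error 0.13, limma adjusted p = 0.00365). The median raw signal of an array was 80.1 to 105 in gelsolin lines and 75.7 to 88.7 in vector lines. Among 13 colorectal epithelial markers EPCAM and KRT8 were bright in every line, whereas VIL1 was dim in every line and CDH1 lay near the common median. Markers of other cell types were mixed. PTPRC (leukocytes), PECAM1 (endothelium) and COL3A1 (fibroblasts) lay below the common median in all 6 lines. CD68 (leukocytes) and COL1A1 (fibroblasts) lay above it in all 6. Of the markers tested, 3 of 10 epithelial markers (KRT19, KRT20 and CLDN4) and VWF, the 1 endothelial marker tested, were higher in gelsolin lines, COL1A1, the 1 fibroblast marker tested, was lower, and neither of the leukocyte markers CD68 and LYZ was called. KRT20 and VWF lay above the common median in the 4 gelsolin lines alone and so passed the filter through the group where they were high. The summed signal was 26587 to 32459 in gelsolin and 23835 to 30765 in vector lines for epithelial, 545 to 566 and 608 to 674 for fibroblast, 662 to 1335 and 730.3 to 751 for leukocyte, and 429 to 464 and 421 to 431 for endothelial markers. The part of these markers in the results was not tested. Because these are bulk samples, fewer cells that express a gene and less of its RNA per cell cannot be told apart.

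The transcripts of the 31 genes tested changed in both directions and by less than 2-fold. Of the 31 genes tested, 8 passed an adjusted p of 0.05, which is 25.8% against 22.2% of all genes tested. RAB5B, VAMP3 and VAMP8 were higher in the gelsolin lines (3 genes, with 12.8% of all genes called higher), and RAB6A, RAB3B, RAB5A, STX1A and SYT1 were lower (5 genes, with 9.41% of all genes called lower). The share called was thus near the background, and no gene reached a 2-fold mean change, which 2.48% of all genes did. The median log2 fold change of the 31 genes was 0.07 against 0.02 over all genes tested, and the median size of the change was 0.21 against 0.19. In 6 of the 31 genes every array of the gelsolin lines lay beyond every array of the vector lines, RAB5B, VAMP3 and STX3 above and RAB5A, STX5 and SYT1 below, while 20.2% of all genes did so. Each of the 31 genes lay above the common median in all 6 lines, so none entered the test through 1 group alone. The remaining 9 genes with a probe (RAB3A, RAB3D, RAB27B, RAB14, RAB32, VAMP2, SNAP25, NAPA and SYT7) lay below it in all 6 lines and were not tested. Without the filter SNAP25 alone of these 9 passed, and the next lowest adjusted p was 0.0642, for RAB32.

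**Figure D1:**
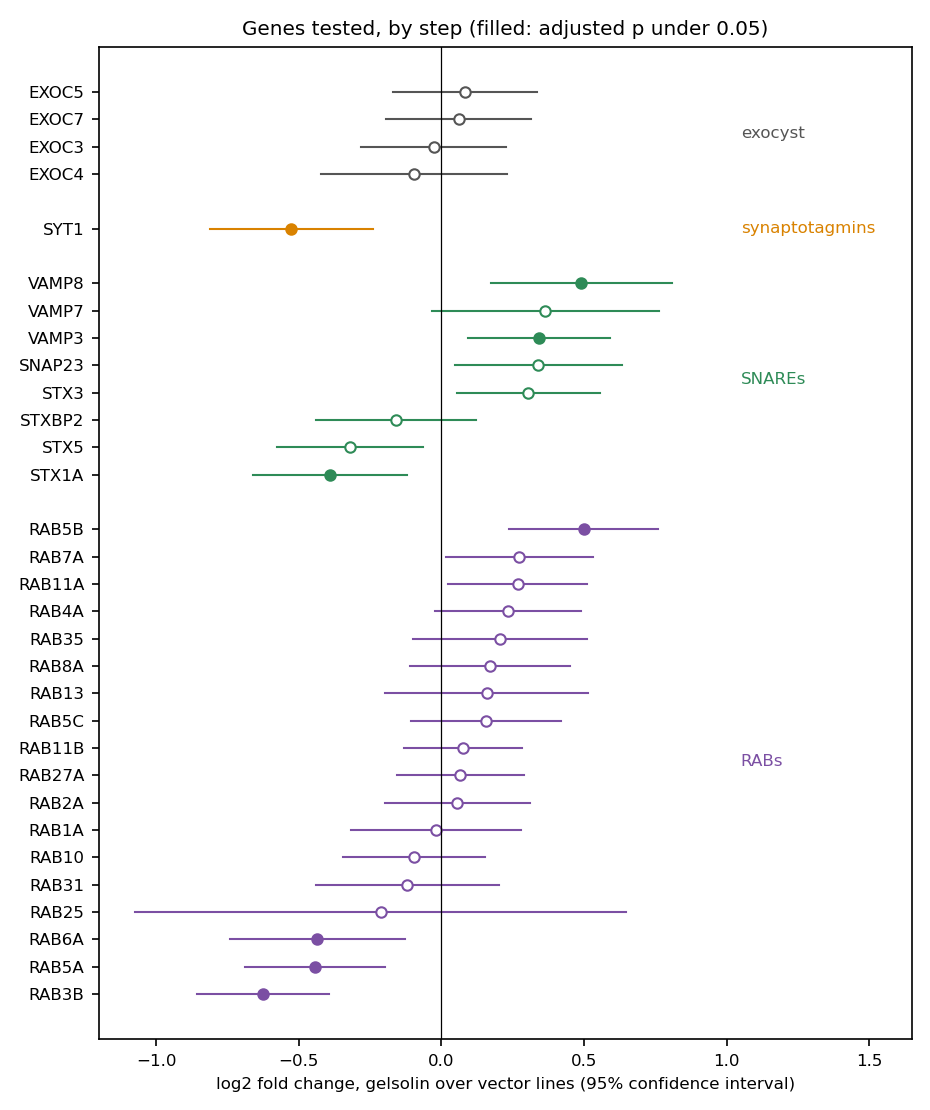
Log2 fold change of each of the 31 genes tested, gelsolin over vector lines, with its 95% confidence interval from limma, grouped by step; filled circles passed an adjusted p of 0.05. The values run from -0.63 for RAB3B to 0.50 for RAB5B, and the interval of RAB25 is the widest of these.

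Among the RABs 1 rose and 3 fell of 18 tested, with a median log2 fold change of 0.07. The share called was 22.2%, against 22.2% of all genes tested. RAB1A and RAB2A, which serve traffic between the endoplasmic reticulum and the Golgi, gave log2 fold changes of -0.02 and 0.06 and did not pass the test. RAB6A, a Golgi RAB that directs retrograde transport and secretory carriers, fell. Its signal in the gelsolin arrays was 188 at the lowest, 254 at the median and 349 at the highest, and the vector arrays gave 419, 352 and 303. The highest gelsolin array, the second harvest of C1, overlapped the vector range, and the other 7 arrays lay below it. RAB6A averaged 254 ± 27.6 and 344 ± 57.3, a 1.35-fold fall (log2 fold change -0.43, standard error 0.14, limma adjusted p = 0.0448). This call was among the least stable: the adjusted p was 0.0603 without C1, 0.0690 without C8, 0.378 without V4 and 0.0745 without V5, and the log2 fold change was -0.84 within beadchip 1, which holds a single vector array, and -0.27 within beadchip 2, with 0.124 as the adjusted p when the beadchip was a block.

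RABs of regulated secretory vesicles were mostly dim in these cells. RAB3A, RAB3D and RAB27B lay below the common median in every line, and RAB27A, which docks secretory granules and exosome-forming endosomes, stood just above it at 105 ± 9.46 and 100.5 ± 7.28, a log2 fold change of 0.07, while its dimmer probes were not tested. RAB3B, a RAB of synaptic and secretory vesicles, had the lowest fold change of all 31 genes. Its signal in the gelsolin arrays ran from 94.7 through a median of 108 to 146, and the vector arrays gave 134, 178 and 189.7. A single gelsolin array, the first harvest of C8, overlapped the lowest vector array, which was the first harvest of V4. RAB3B was 1.54-fold lower in the gelsolin lines, at 111 ± 5.39 against 172 ± 24.9 (log2 fold change -0.63, standard error 0.11, limma adjusted p = 0.00171). It kept this call when any 1 line was left out. A beadchip block gave -0.58. Within beadchip 1 the log2 fold change was -0.23 (adjusted p = 0.657) and within beadchip 2 it was -0.77 (adjusted p = 0.00423). The study lists RAB3B and SYT1 among genes it chose on these same arrays, so that their listing is not independent evidence of a direction.

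RABs that carry cargo from the Golgi to the surface did not pass the test. RAB8A, RAB10 and RAB13, which act in basolateral and junctional delivery, had log2 fold changes of 0.17, -0.10 and 0.16. The recycling RABs also stayed short of the threshold, with RAB4A (fast recycling) at 0.23 and RAB11A (slow recycling) at 0.27, both with every gelsolin line above the mean of the vector lines. RAB11A was 3105 ± 102 in gelsolin lines and 2586 ± 274 in vector lines, with a limma adjusted p of 0.11. It passed under quantile normalization, at 0.0486, and within beadchip 1 its log2 fold change was -0.01 (adjusted p = 0.991). RAB11B and RAB35 gave 0.08 and 0.21. RAB25, an epithelial relative of RAB11 that steers integrin recycling, varied most between lines of all 31 genes: its line means were 1665 in C1, 1887 in C2, 800 in C3 and 1317 in C8, against 1795 and 1361 in V4 and V5. Line C3 was low in both harvests, at 599.6 and 1066, and the highest gelsolin line was 2.36-fold above the lowest. The 95% interval of its log2 fold change of -0.21 ran from -1.07 to 0.65, and without C3 the value was 0.04.

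**Figure D2:**
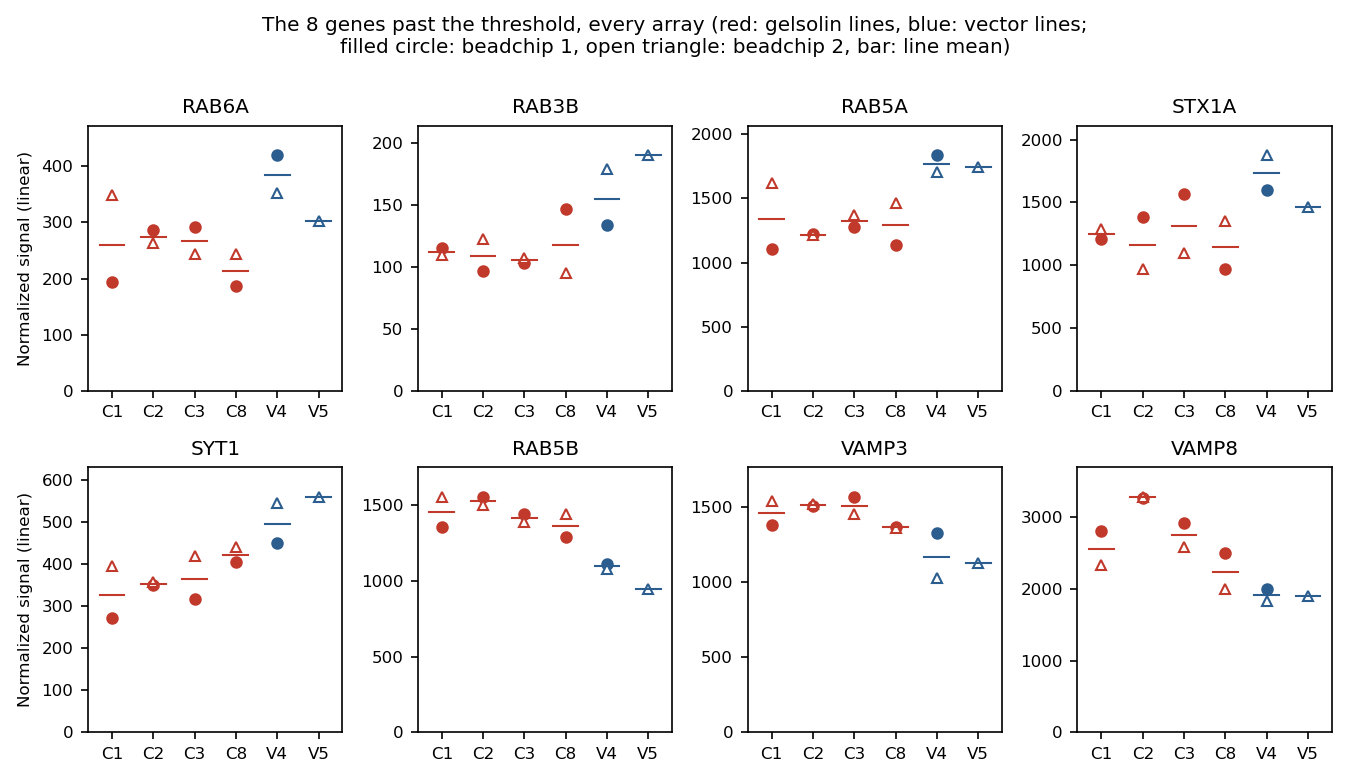
Normalized signal (linear, from 0) of the 8 genes that passed the test on every array, by line; red marks gelsolin lines and blue vector lines, filled circles beadchip 1, open triangles beadchip 2, and bars the line mean. RAB5A, SYT1, RAB5B and VAMP3 do not overlap between the groups, whereas RAB6A, RAB3B, STX1A and VAMP8 do.

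Of the early endosomal RAB5 paralogs, RAB5A fell and RAB5B rose. Such opposite movement was not particular to RAB5, since RAB6A fell and RAB6B rose (log2 fold change of RAB6B 0.48, limma adjusted p = 0.0156). RAB5A and RAB5B are closely related proteins that share effectors in homotypic fusion of early endosomes. For RAB5A the gelsolin arrays ran from 1106 through a median of 1249 to 1618, and the vector arrays gave 1836, 1706 and 1745. For RAB5B the gelsolin arrays ran from 1295 through 1444 to 1557, and the vector arrays gave 1116, 1082 and 946. The groups did not overlap for either gene. Probe sequences were not analysed here, so cross-hybridisation between the RAB5 paralogs, or between RAB6A and related copies, was not tested. RAB5A averaged 1292 ± 53.6 and 1757 ± 17.3 and was thus 1.36-fold lower (log2 fold change -0.44, standard error 0.11, limma adjusted p = 0.0155). RAB5B averaged 1442 ± 68.0 and 1022 ± 108 and was 1.41-fold higher (log2 fold change 0.50, standard error 0.12, limma adjusted p = 0.0122). RAB5C, the other paralog, gave 0.16 with an interval of -0.10 to 0.42 (limma adjusted p = 0.377). The pair was singled out after its values were seen, so the following is a description: relative to the vector mean, the log2 ratio of RAB5B to RAB5A was 0.91 in C1, 1.11 in C2, 0.88 in C3 and 0.87 in C8, against 0.10 in V4 and -0.10 in V5, a mean shift of 1.92-fold. Fitted with a beadchip block, RAB5A gave -0.42 and RAB5B 0.48. On beadchip 1 alone the values were -0.63 and 0.34, and on beadchip 2 alone -0.29 and 0.54. Beadchip 1 holds a single vector array, so no call for RAB5A or RAB5B is drawn from it. Within beadchip 2 alone RAB5A did not pass. Without V4 the adjusted p of RAB5A was 0.123, and without V5 those of RAB5A and RAB5B were 0.133 and 0.194.

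**Figure D3:**
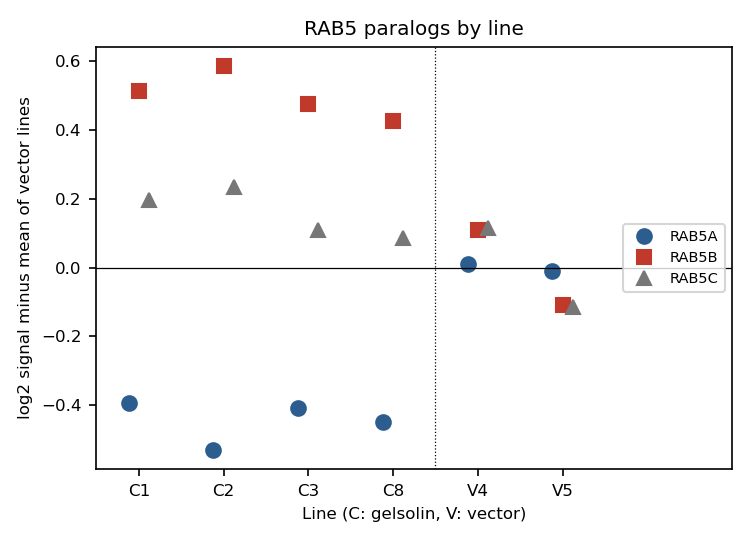
Line means of the RAB5 paralogs on the log2 scale, each minus the mean of the vector lines; circles are RAB5A, squares RAB5B and triangles RAB5C. In all 4 gelsolin lines RAB5A lies at or below -0.39 and RAB5B at or above 0.42, and the 3 genes lie between -0.11 and 0.11 in V4 and V5.

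Promoter windows are shown for RAB5A and RAB5B, which moved in opposite directions, and for RAB3B and SYT1, the genes with the lowest fold changes of the 31. The windows span 250 bases before to 50 after the start of the gene in RefSeq (GRCh38.p14), read 5′ to 3′ along the gene, with capitals on matches to 6 motifs searched on both strands. These were the GC box with the letters GGGCGG, the CCAAT box, the E-box with the letters CACGTG, the CRE of cyclic AMP response with the letters TGACGTCA, the TATA box with the letters TATAAA, and the CArG box bound by serum response factor. RAB5A lies at chr3:19946847-19947146 on the plus strand, RAB5B at chr12:55973699-55973998 on the plus strand (the first of 2 windows listed), RAB3B at chr1:51990651-51990950 on the minus strand and SYT1 at chr12:78864524-78864823 on the plus strand.
RAB5A: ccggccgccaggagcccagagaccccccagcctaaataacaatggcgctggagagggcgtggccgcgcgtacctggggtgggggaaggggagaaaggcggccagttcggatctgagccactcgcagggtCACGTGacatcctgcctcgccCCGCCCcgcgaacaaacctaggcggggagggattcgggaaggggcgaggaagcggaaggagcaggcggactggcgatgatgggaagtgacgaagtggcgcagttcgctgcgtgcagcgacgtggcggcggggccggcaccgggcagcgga
RAB5B: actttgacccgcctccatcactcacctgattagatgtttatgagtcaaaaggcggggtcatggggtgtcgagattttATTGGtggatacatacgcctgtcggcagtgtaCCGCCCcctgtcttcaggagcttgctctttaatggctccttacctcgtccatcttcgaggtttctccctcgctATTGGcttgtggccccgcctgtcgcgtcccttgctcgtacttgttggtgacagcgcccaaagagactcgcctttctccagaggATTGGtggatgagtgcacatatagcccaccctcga
RAB3B: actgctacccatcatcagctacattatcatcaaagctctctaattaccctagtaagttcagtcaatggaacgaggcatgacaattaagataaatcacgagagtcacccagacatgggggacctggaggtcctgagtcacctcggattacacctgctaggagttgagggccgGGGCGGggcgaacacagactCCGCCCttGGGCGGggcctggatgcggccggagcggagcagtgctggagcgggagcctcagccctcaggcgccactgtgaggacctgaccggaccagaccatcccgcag
SYT1: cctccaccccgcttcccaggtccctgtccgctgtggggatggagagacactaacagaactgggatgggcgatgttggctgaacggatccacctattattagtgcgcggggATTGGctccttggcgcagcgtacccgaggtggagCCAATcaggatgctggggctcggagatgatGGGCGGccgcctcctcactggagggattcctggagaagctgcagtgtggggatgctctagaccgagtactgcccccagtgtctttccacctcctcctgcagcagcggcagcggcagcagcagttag
The RAB5A window held 1 GC box and 1 E-box, and that of RAB5B 1 GC box and 3 CCAAT boxes. The RAB3B window held 3 GC boxes, and that of SYT1 1 GC box and 2 CCAAT boxes. Over 51 windows of 38 of the 42 genes, 80.4% held a GC box against 45% of all 35116 windows, 25.5% a CCAAT box against 34.6%, 11.8% an E-box against 7.26%, 1.96% a CRE against 1.85% and 3.92% a TATA box against 11.5%. None of the 51 windows held a CArG box, which 1.29% of all windows did. A match describes letters and is no evidence of binding.

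Late endosomal and other RABs did not pass the test. RAB7A, which drives maturation to late endosomes and lysosomes, averaged 3156 ± 279 and 2604 ± 91.7 (log2 fold change 0.27, limma adjusted p = 0.121). It passed under quantile normalization, at 0.0398, and without C8, at 0.0232. RAB31, a trans-Golgi and endosomal RAB, was at 2530 and 2563 in C1 and C2 but 1906 and 1939.8 in C3 and C8, with the vector lines at 2475 and 2335, and gave -0.12. RAB32, a RAB of lysosome-related organelles, was dim in every line.

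The 8 SNAREs and regulators tested had a median log2 fold change of 0.32, with values from -0.39 to 0.49. Of the 3 vesicle SNAREs tested VAMP3 and VAMP8 rose, and all 3 had every gelsolin line above the vector mean. Over all genes tested, 12.8% were called higher. In 59.8% of all genes the gelsolin lines lay on one side of the vector mean, so agreement of the lines is common. VAMP8, the SNARE of regulated exocytosis in exocrine and epithelial cells and of autophagosome fusion, was 1999 at the lowest, 2699 at the median and 3287 at the highest gelsolin array, and 2002, 1828 and 1907 on the vector arrays. A single gelsolin array, the second harvest of C8, fell within the vector range. VAMP8 averaged 2709 ± 438 and 1909.8 ± 3.91 (log2 fold change 0.49, standard error 0.15, limma adjusted p = 0.0311). Fitted with a beadchip block it gave 0.46, and the separate beadchips gave 0.52 and 0.43. VAMP8 did not pass within beadchip 2 alone, and no call is drawn from beadchip 1, which holds a single vector array. VAMP3 (cellubrevin), the SNARE of recycling endosomes that also serves integrin and metalloproteinase traffic, ran from 1362 through 1477 to 1566 on the gelsolin arrays and gave 1328, 1029.6 and 1129 on the vector arrays. The groups did not overlap, and the gap was narrow on beadchip 1. VAMP3 averaged 1459 ± 69.0 and 1149 ± 28.4 and was 1.27-fold higher (log2 fold change 0.34, standard error 0.11, limma adjusted p = 0.0493). It gave 0.13 on beadchip 1 alone and 0.44 on beadchip 2 alone, and its adjusted p with a beadchip block was 0.0631. Leaving out C2, C3, V4 or V5 gave VAMP8 adjusted p-values of 0.0576, 0.0526, 0.163 and 0.198, and leaving out C1, C2, C3, V4 or V5 gave VAMP3 0.0815, 0.108, 0.0984, 0.186 and 0.295. VAMP7, a SNARE of lysosomal exocytosis, stayed short of the threshold (log2 fold change 0.36, adjusted p = 0.174), with line C3 at 1631 and C1, C2 and C8 at 1107, 1169 and 999, against 1015 and 863 in V4 and V5. VAMP2, the neuronal vesicle SNARE, was dim.

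Of the 4 target membrane SNAREs tested 1 fell, while 9.41% of all genes were called lower. STX1A, the syntaxin of neuronal and endocrine exocytosis, was the one that fell: the gelsolin arrays ran from 973 through 1247 to 1571, and the vector arrays gave 1600.0, 1875 and 1464. The highest gelsolin array, the first harvest of C3, lay above V5 and the other 7 below all vector arrays. STX1A averaged 1217 ± 76.7 and 1598 ± 189.8 and was 1.31-fold lower (log2 fold change -0.39, standard error 0.12, limma adjusted p = 0.0417). It gave -0.34 on beadchip 1 alone, which holds a single vector array and from which no call is drawn. On beadchip 2 alone it gave -0.51 and did not pass. With the beadchip as a block it gave -0.43 with an adjusted p of 0.0939, and without C1, C2, V4 or V5 the adjusted p was 0.0605, 0.0832, 0.346 and 0.104. STX3, the apical syntaxin of epithelial cells, was at 381, 454 and 529.9 (lowest, median and highest gelsolin array) and at 379.7, 379 and 361 on the vector arrays. STX5, the Golgi syntaxin, was at 606, 677 and 775 on the gelsolin arrays and at 805, 899 and 849 on the vector arrays. Neither overlapped between the groups and neither passed the test, with log2 fold changes of 0.31 (limma adjusted p = 0.0796) for STX3 and -0.32 (0.0707) for STX5. SNAP23, a partner of syntaxins outside neurons, gave 0.34 (adjusted p = 0.0908). Its dimmer probe differed by 0.06, so the 2 probes of SNAP23 disagreed in size. SNAP25, the neuronal counterpart, was dim at 69.6 ± 5.53 and 83.8 ± 4.61, and without the filter it gave -0.27 (adjusted p = 0.0313). Of the regulators STXBP2, the SM partner of STX3 in epithelia, gave -0.16 with an adjusted p of 0.403, and NAPA was dim.

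SYT1, the calcium sensor of fast exocytosis, fell and was the only synaptotagmin of the 2 that could be tested. The gelsolin arrays ran from 271 through 375 to 441, and the vector arrays gave 449, 544 and 559. The groups did not overlap, with the second harvest of C8 closest to the first harvest of V4. SYT1 was 1.44-fold lower, at 366 ± 40.1 against 527 ± 45.7 (log2 fold change -0.53, standard error 0.13, limma adjusted p = 0.0142). A beadchip block gave -0.45 and the separate beadchips -0.44 and -0.46, and its adjusted p was 0.0594 without V4 and 0.179 without V5. SYT1 did not pass within beadchip 2 alone, and no call is drawn from beadchip 1, which holds a single vector array. SYT7, a slower calcium sensor of lysosomal exocytosis, was dim on all arrays, at 59.2 to 66.9 on the gelsolin arrays. RAB3B, STX1A and SYT1 are best known from neurons and endocrine cells, so a list of 14 neuroendocrine markers was set beside them, of which 10 had a probe and 4 were tested. Of these 4 only 1 was called, ENO2, which was higher by a log2 fold change of 1.52 (limma adjusted p = 0.000129), and CHGA, CHGB and SYP lay below the common median in every line. The summed signal of the marker list was 1779 to 3287 in gelsolin lines and 1212 to 1315 in vector lines, and most of its spread was in SCG2, at 1183, 2381, 701 and 1049 in C1, C2, C3 and C8 against 509.7 and 592 in V4 and V5. The part of these markers in the results for RAB3B, STX1A and SYT1 was not tested.

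No exocyst subunit of the 4 tested passed. EXOC3, EXOC4, EXOC5 and EXOC7, parts of the complex that tethers secretory vesicles, had log2 fold changes of -0.03, -0.10, 0.08 and 0.06. A dimmer probe of EXOC7, below the common median in every line and not tested, differed by -0.17. The 95% intervals of these 4 subunits lay between -0.42 and 0.34. EXOC4 varied most between lines, with C1 at 513 and C2, C3 and C8 at 397, 353 and 373, while V4 and V5 gave 426 and 438.

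**Figure D4:**
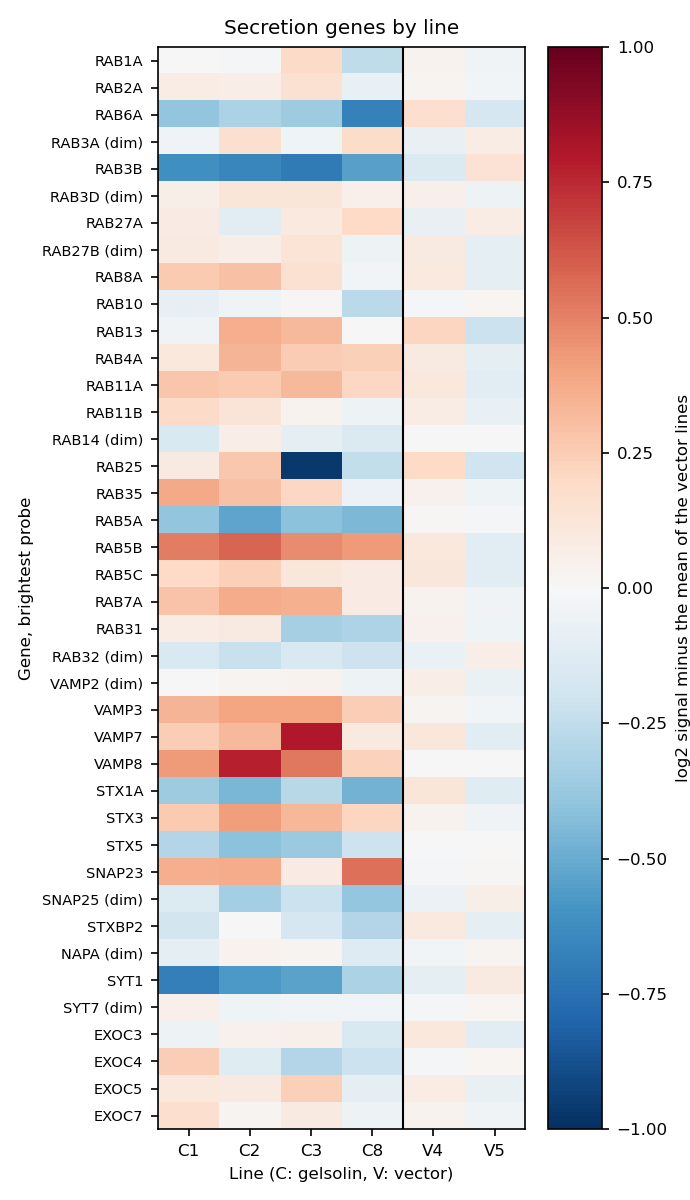
Line mean of each of the 40 genes with a probe, as log2 signal minus the mean of the vector lines (red above, blue below), by line; genes marked dim were not tested. C1, C2, C3 and C8 share their direction in the 8 called genes, as the test favours genes on which the lines agree. RAB25 in C3 stands out as a value of one line.

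Variation between lines was of the same order as over the whole array. The highest gelsolin line exceeded the lowest by a median of 1.22-fold in the 31 genes and 1.23-fold in all genes, and by more than 1.4-fold in 4 of the 31 genes (RAB25, VAMP7, VAMP8 and EXOC4), 12.9% against 18.5%. Harvests of a line differed by a median of 1.12-fold in these genes and also in all genes. All 4 gelsolin lines lay on one side of the vector mean in 16 of the 31 genes, 51.6% against 59.8%.

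Genes related to these 42 were listed by role. Of 22 other RABs tested 4 rose and 1 fell. RAB26, a RAB of secretory granule maturation, rose from 155 and 115 in V4 and V5 to between 352 and 373 in the gelsolin lines, a log2 fold change of 1.44 (limma adjusted p = 3.21e-05), and RAB40B rose by 0.71 (adjusted p = 0.00207). RAB1B and RAB6B rose by 0.45 and 0.48, and RAB22A, an endosomal RAB, fell by 0.54. Of 30 RAB regulators 5 rose and 3 fell. Both subunits of the RAB3 GTPase-activating complex, RAB3GAP1 and RAB3GAP2, fell by 0.44 and 0.71, and DENND1A, an exchange factor for RAB35, fell by 0.65. TBC1D15, a GTPase-activating protein for RAB7, rose by 0.72, TBC1D2 by 0.68, and RABGGTA, a subunit of the enzyme that attaches lipid to RABs, by 0.56. Of 24 effectors 1 rose and 4 fell. MLPH, which links RAB27A to myosin V, fell by 0.90, BICD1, a dynein adaptor that binds RAB6, fell by 0.63, and MICALL1, a recycling endosome effector, fell by 0.84. MICALL1 lay below the common median in C2 and C3, and RAB11FIP4, the effector that rose (by 0.32), lay below it in both vector lines.

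Of 24 other SNAREs 3 rose and 1 fell. VAMP1, a vesicle SNARE closely related to VAMP2, rose from 94.8 and 127 in V4 and V5 to between 203 and 245 in the gelsolin lines (log2 fold change 1.02, limma adjusted p = 0.000399). VAMP4 and SNAP47 rose by 0.35 and 0.33, and BET1, a SNARE of traffic from the endoplasmic reticulum to the Golgi, fell by 0.61. Of 14 SNARE regulators only NAPB, a close relative of NAPA, was called and rose by 0.35. Of 7 other synaptotagmins only SYT13 was called, with a rise of 0.40. Of 10 other exocyst subunits and partners TNFAIP2, a protein related to EXOC3, rose by 0.87, RALGDS, an exchange factor for the exocyst regulator RAL, rose by 0.66, and EXOC2 fell by 0.35. The share called in these lists was 22.7% in other RABs, 26.7% in regulators, 20.8% in effectors, 16.7% in other SNAREs, 7.14% in SNARE regulators, 14.3% in other synaptotagmins and 30% in other exocyst genes, against 22.2% of all genes. The median log2 fold changes were -0.10, -0.04, -0.08, 0.04, 0.06, 0.05 and 0.13 in the same order.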

How the data were processed

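RNA from 11 arrays of 6 stable HCT116 lines was analysed, grouped by the sample labels. The deposited intensity values are linear average bead signals from BeadStudio, which the authors exported before normalization between arrays. Whether background was subtracted is not stated, and the lowest signal of an array was 34.2 to 41.9. A deposited table of ratio values was made by the authors in GeneSpring, each array divided by its 50th percentile and each probe by 1 baseline, and these differed from the intensities divided by the array median by 1 constant per probe and at most 3.46e-07 on the log2 scale. No detection p-values were used.

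Here each array was scaled to a common median of 88.35, and log2 signals were averaged by line, since harvests repeat a line. The filter kept 10733 of 20596 probes, those with at least 2 of 6 line means above that median. Of the probes, 18389 carry 1 gene symbol after the platform annotation was matched to gene identifiers, 0 several and 2207 none. For 18369 probes the symbol was read through the gene identifier, whether or not it differed from that of the platform. The brightest probe stood for a gene. The test between 4 gelsolin and 2 vector lines used limma 3.58.1 (R 4.3.3, lmFit, eBayes with trend and robust), 2-sided, adjusted by Benjamini-Hochberg over 10267 genes at a threshold of 0.05. An adjusted p without another name is from limma. The test was also run on simulated data. The p-values measure the spread between these 6 lines, V5 counts as 1 line on 1 array, and background left in the signals makes the folds of dim probes too small. The numbers of lines and arrays limit the precision.

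The 42 genes, the gene lists and the rules were chosen with earlier results of these data known. All 42 are accounted for. Genes past the threshold, genes without overlap between arrays, RAB3B and the synaptotagmins are given in full, the others by line means or counts, and each context list by counts and up to 3 called genes per direction with the smallest adjusted p. A few list members outside this rule were named after their values were seen. Promoters came from RefSeq (GRCh38.p14), with 38 of 42 genes matched. The alternatives were 21 settings: other normalizations, background correction, offset, filters, moderation, the methods' test, arrays in place of lines, beadchip, harvest number, probe choice, the ratio table, leaving out each line and, chosen after seeing the data, leaving out 1 array.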

Additional observations from a re-analysis of the deposited data

How the results depend on the processing

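No called gene changed direction under any of the 21 alternatives that gave it a value, and how many passed moved with the test and the vector lines. Quantile normalization, and normexp followed by it, called 5 of the 31 genes higher, adding RAB11A and RAB7A. Over all genes they called 1326 and 1321 higher. The methods' test, which borrows no information between genes, called 0 higher and 1 lower, with 10 at an unadjusted p under 0.05, and over all genes 240 higher and 243 lower. A beadchip block left 2 higher and 3 lower, with 1094 higher and 837 lower over all genes. Within beadchip 1, with a single array of V4 as the vector group, 0 were called higher and 0 lower (3 at an unadjusted p under 0.05), with 66 and 138 over all genes, and the median log2 fold change of the SNAREs was 0.21, against 0.32 in the main analysis. Within beadchip 2 there were 2 higher and 1 lower, with 933 higher and 564 lower over all genes. Without the filter the SNARE median was 0.00013, since 3 dim genes entered. Leaving out 1 line at a time gave 0 to 4 higher and 1 to 5 lower, and over all genes 289 to 1559 higher and 347 to 964 lower. The fewest higher calls came without V5 (0, with 7 of the 31 genes at an unadjusted p under 0.05), and V4 or V5 left out gave 1 lower. With the harvest number as a replicate block, in which V5 counts as harvest 1 by its label, 3 genes were higher and 4 lower (1094 and 896 over all genes), RAB6A and STX1A losing their call and STX5 gaining one. Harvest differences of lines correlated from -0.282 to 0.585 over 10 pairs of lines, so the harvest number was not taken to pair arrays. Leaving out the second harvest of C1, the array with the highest median signal and chosen after seeing the data, gave 2 higher and 5 lower. Over all genes this setting gave 1270 higher and 1003 lower. RAB3B lost its call in 2 settings, the methods' test and beadchip 1, and had no value under the stricter filter, whereas RAB6A, VAMP3 and STX1A each lost theirs in 11. With 2 vector lines, of which V5 is 1 array, the precision of every comparison rests on few arrays, and dim probes carry background that shrinks their folds.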

Other observations

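The vesicle coats that form the carriers upstream of these RABs and SNAREs were read in the same way. Of 27 COPI and COPII coat genes and their ARF regulators that passed the filter, 4 rose and 3 fell (25.9% called against 22.2% of all genes), and their median log2 fold change was 0.02. ARF5, a small GTPase of the Golgi, had the largest difference of the called coat genes, with line means of 2466, 2086, 1746 and 1776 in C1, C2, C3 and C8 against 994 and 979 in V4 and V5, a log2 fold change of 1.02. SEC31B, an outer COPII coat subunit, was higher by 0.46, but lay below the common median in both vector lines. COPG2, a COPI subunit, was higher by 0.42. ARFGAP2, SEC23B and SEC24D were lower, with log2 fold changes of -0.40, -0.41 and -0.47, and of these SEC24D is a cargo-binding COPII subunit.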
